A study of Lathyrus oleraceus subsp. biflorus and Lathyrus oleraceus and [Pisum sativum] subsp. abyssinicum with 117 samples.

Results

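The seed coat of the pea landrace JI92 was followed from developmental stage D1 to D5. Its libraries were those whose columns carry the tissue seed coat and the line JI92 in the main set, which gave 9 of the 117 libraries of the series. Stages D1, D2, D3 and D4 held 2 libraries each and D5 held 1. A further 6 seed coat libraries of JI92, labelled 2017, were kept apart and are used only for comparison. The series covers seed coat and embryo of 6 lines, namely the wild peas (Pisum elatius) JI64, JI261 and JI1794, the domesticated peas (P. sativum) JI92 and cv. Cameor, and the Ethiopian pea (P. abyssinicum) PI358617. All plants grew in a glasshouse with no treatment, and neither the days behind D1 to D5 nor the number of plants behind a library is given in the sources used here. Nothing in the labels says that both libraries of a stage came from separate plants, so p-values measure the spread between these libraries, which may be technical. JI92 is 1 line, so the results describe this landrace and not landraces in general.

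The seed coat is maternal tissue that encloses the embryo. In legumes it first grows and forms its cell layers, then unloads sugars and amino acids from the phloem for the embryo, and finally hardens and dries into the testa. In peas it also decides whether a dry seed takes up water, the physical dormancy that separates wild from domesticated forms. The files give feature identifiers without gene names, and 0 of them matched the 65673 RefSeq genes of the supplied table, which belongs to another pea assembly (ZW6). No function is stated for any feature below, and no position, since the files give none. An identifier that begins with Psat belongs to the gene annotation, and one that begins with Ps_DOR2genes is called a locus outside the annotation.

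The 9 libraries held 62.6 M to 73.4 M counts (M for mega), with a median of 67.4 M. Replicates of a stage had Spearman correlations of log2 CPM (counts relative to the total of the library) of 0.930 at D1, 0.942 at D2, 0.964 at D3 and 0.965 at D4. Their counts differed by 6.74 to 67.3 times the variance of sampling noise, so no pair was a repeat of 1 library. Features enriched in the seed coat of PI358617 (300, a list defined without JI92) took 7.66% to 16.6% of the counts in these libraries and 0.119% to 0.288% in 8 JI92 embryo libraries. Of 105 features present only in JI92 embryos among the embryos of the 6 lines, 87.6% to 100% were detected in each seed coat library. Seed coat and JI92 were thus present as labelled in all 9 libraries. These checks do not show whether a library also held material of another line or tissue.

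Some libraries stood apart. At D1 and at D2 the library numbered 1 held 495 features at more than 8 times their level in the library numbered 2, at both stages, and 0 features showed the reverse at both. These features took 0.414% and 0.431% of the counts in the libraries numbered 1, 0.0148% to 0.0224% in those numbered 2, and 0.0256% to 0.0571% at D3 to D5. They took 0.240% to 0.632% in the 2017 seed coats of JI92, 0.468% to 0.692% in Cameor seed coats and 0.115% to 0.967% in 8 JI92 embryo libraries. Which libraries are the unusual ones was not tested. Between late and early, 22 of the 495 features were called lower and 0 higher, where 23.1% and 17.9% of all features tested were. Their median log2 change was -2.60, against -0.27 over all features tested. In both D4 libraries 72.0% to 74.2% of 132 features present only in JI64 embryos were detected, against 0% to 1.52% at the other stages. The median level of 123 such features in the D4 libraries was 4.07% and 4.70% of that in the JI64 seed coat at D4. Counts are therefore also given without these libraries.

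**Figure D1:**
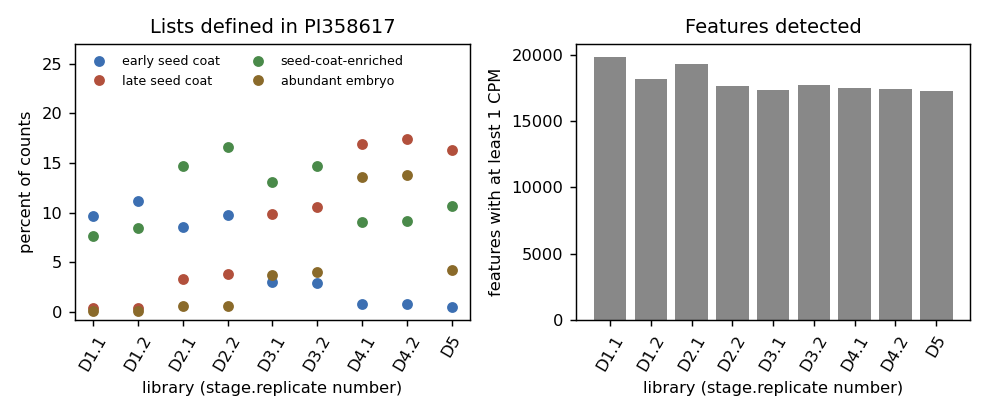
The left panel plots, for each of the 9 JI92 seed coat libraries, the percent of counts in 4 feature lists defined in PI358617, and the right panel the number of features with at least 1 CPM. The share of the early list falls from 9.62% and 11.2% at D1 to 0.542% at D5, that of the abundant embryo list is highest at D4 (13.6% and 13.8%), and the libraries numbered 1 at D1 and D2 hold the most features (19824 and 19321).

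The main question was how the late seed coat (D3, D4 and D5) differs from the early one (D1 and D2). Of 31019 features tested, 12699 changed, which is 40.9% of them. Of these, 5539 were higher late (17.9% of those tested) and 7160 were lower (23.1%), by edgeR's quasi-likelihood test with an adjusted p under 0.05. The typical decrease was the steeper one, with a median log2 change of -1.72 against 1.24 for the features that rose, and -0.27 over all features tested. At least 16-fold changes were found for 785 features that rose and 1547 that fell. The 5 late libraries all lay above the 4 early ones for 2259 of the features that rose and below them for 4198 of those that fell. Such a separation held for 7.49% and 15.2% of all features tested. Of the features that rose, 109 had 0 counts in all 4 early libraries, and 330 of those that fell had 0 counts in all 5 late ones. Without the libraries numbered 1 at D1 and D2 the total was 13364, and without both D4 libraries it was 9909. With only 2 classes and no stage means it was 5913 (2797 rose and 3116 fell).

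The 4 features named for this comparison are those with the largest fold and the largest difference in each direction, among features whose early and late libraries do not overlap. Folds come from the mean of stage means on the log2 scale, so they differ from the ratio of mean CPM. Psat0s1925g0040 had 0.196 and 0.192 CPM at D1, 0.685 and 0.177 at D2, 15.8 and 18.2 at D3, 3367 and 3437 at D4, and 1397 at D5. It rose by 10.78 on the log2 scale (SE 0.39, edgeR adjusted p = 3.29e-06), a change of 1759-fold. The rise lay between D2 and D4. In JI92 embryos the same feature went from 5.64 CPM at D2 to 10983 at D5, so at D4 the embryo lay below the seed coat (886 against a mean of 3402 CPM) and at D5 above it. Leaving out D5 gave a log2 change of 9.97, and leaving out library 1 of D2 gave 11.38.

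Psat5g004800 rose from 968 and 977 CPM at D1 through 1637 and 2500 at D2, 4193 and 6631 at D3, and 6767 and 6710 at D4 to 19350 at D5. Its log2 change was 2.84 (SE 0.27, edgeR adjusted p = 1.51e-04), or 7.17-fold. The mean rose at every step, and at D5 this feature alone made up 1.93% of all counts. In the embryos it stayed between 21.0 and 386 CPM.

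Psat3g140920 fell from 860 and 1373 CPM at D1 and 445 and 469 at D2 to 3.12 and 5.10 at D3, 0.427 and 0.564 at D4, and 0.217 at D5. The log2 change was -9.68 (SE 0.39, edgeR adjusted p = 4.37e-06). Its main drop lay between D2 and D3, where the groups are separated by a wide gap. Leaving out D5 gave -8.74. Psat1g156800 had 5427 and 4585 CPM at D1, 10647 and 9506 at D2, 3612 and 4102 at D3, 1662 and 1756 at D4, and 32.0 at D5. It was thus highest at D2 and had nearly gone at D5. Its log2 change of -3.36 (SE 0.17, edgeR adjusted p = 8.42e-06) was -1.21 without the single D5 library, and with 2 classes and no stage means it did not pass (log2 change -1.53, adjusted p = 0.260).

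**Figure D2:**
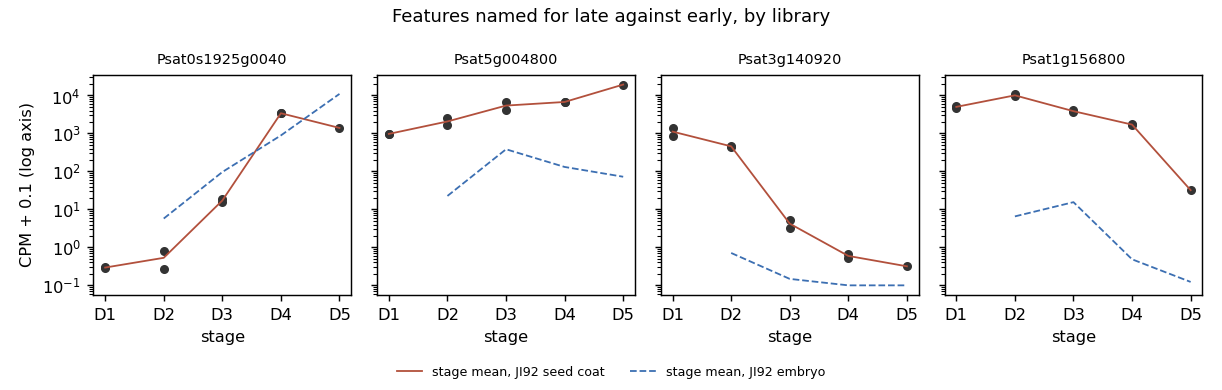
CPM plus 0.1 on a log axis against stage for the 4 features named for late against early, with 1 point per JI92 seed coat library, a solid line through the stage means and a dashed line through the JI92 embryo means from D2 to D5. Psat0s1925g0040 climbs from below 1 CPM to 3367 and 3437 CPM at D4, Psat5g004800 rises at each step to 19350 CPM, and Psat3g140920 and Psat1g156800 decline to 0.217 and 32.0 CPM at D5.

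Single steps each changed fewer features than the whole contrast, and every step moved features both ways. From D1 to D2, 2589 features rose (8.35% of those tested) and 2815 fell (9.08%), 5404 in all. The next step, D2 to D3, held 2463 features that rose (7.94%) and 2090 that fell (6.74%), 4553 together. Between D3 and D4, 2010 rose (6.48%) and 2463 fell (7.94%), a total of 4473. At the last step, D4 to D5, 1145 rose (3.69%) and 2203 fell (7.10%), which makes 3348. Large changes were unevenly spread, since 597 features rose and 179 fell by at least 16-fold from D3 to D4, whereas 94 rose and 553 fell by as much from D4 to D5. D5 has 1 library, whose spread is taken to be that of the other stages, so these counts do not rank the steps. In data simulated from these libraries the test found 43.3% of 67 4-fold changes from D4 to D5 and 82.1% of 67 between late and early. Far fewer features changed in the simulation than were called in the data, so these shares do not give the power in the data.

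The step counts were less firm than the late against early count. Leaving out both libraries numbered 1 at D1 and D2 gave 6339, 6008, 8504 and 7057 features for the 4 steps in order, and leaving out both numbered 2 gave 5177, 8796, 8018 and 6772. The count from D1 to D2 was 3434 without library 1 of D2. From D2 to D3 it was 1870 without library 1 of D2, 1477 and 1830 without library 1 or 2 of D3, and 3035 and 3027 without library 1 or 2 of D4. From D3 to D4 it was 1703 and 2101 without library 1 or 2 of D3, and 1487 and 1390 without library 1 or 2 of D4. From D4 to D5 it was 1245 and 1269 without library 1 or 2 of D4. The majority direction depended on the scaling at the first 3 steps, where RLE in place of TMM gave 2602 higher and 2305 lower, 1893 and 2068, and 2033 and 1737. In limma on log2(FPKM + 1) the majority at the last step turned, with 2411 higher and 1942 lower.

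**Figure D3:**
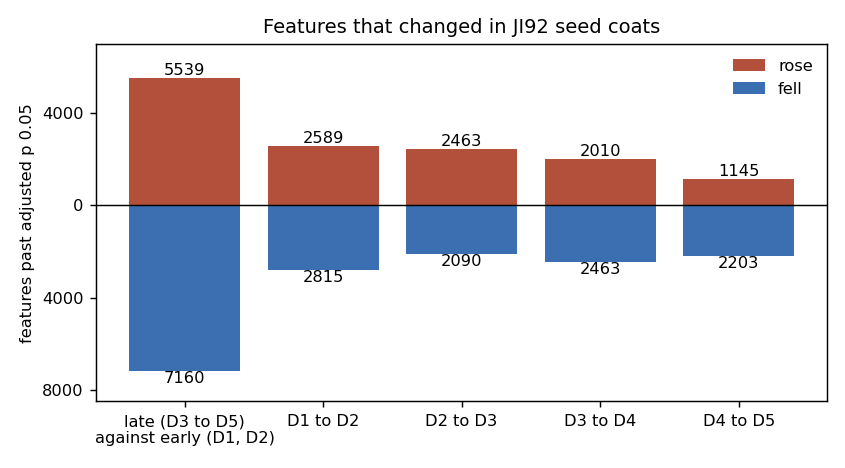
The bars give the number of features past an edgeR adjusted p of 0.05 in JI92 seed coats, those that rose above the zero line and those that fell below it, for late against early and for each step. More features fell than rose in each comparison except D2 to D3, where 2463 rose and 2090 fell, and with RLE scaling the majority turns at the first 3 steps.

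From D1 to D2, Psat1g101880 rose from 1.05 and 1.41 CPM to 1339 and 1070 (log2 change 10.02, SE 0.34, edgeR adjusted p = 5.14e-05). It stayed at 696 to 1344 CPM at D3 and D4 and was at 9.07 CPM at D5, so its high level spanned the middle stages. Psat2g026840 rose from 3492 and 5741 CPM to 16461 and 24469, when it made up 2.05% of all counts (log2 change 2.25, SE 0.45, edgeR adjusted p = 0.0141). The replicates of this feature were far apart at both stages. Its log2 change was 2.98 without library 2 of D1 and 1.76 without library 2 of D2. Psat5g292680 fell from 509 and 619 CPM to 0.628 and 0.245 (log2 change -10.28, SE 0.55, edgeR adjusted p = 2.16e-04). It was almost confined to D1, with at most 0.0458 CPM in any library from D3 on. Psat7g105640 fell from 8165 and 8341 CPM to 1830 and 2648 (log2 change -1.75, SE 0.31, edgeR adjusted p = 0.00841) and was at 6.74 CPM at D5. Its call at this step was lost without library 1 of D2 (log2 change -1.31, adjusted p = 0.0651).

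From D2 to D3, Psat0s1215g0120 rose from 0.328 and 0.232 CPM to 212 and 159 (log2 change 9.53, SE 0.80, edgeR adjusted p = 8.85e-04). At D4 it reached 4099 and 5085 CPM, and in JI92 embryos it went from 2.47 CPM at D2 to 3291 at D5. Psat3g011320 rose from 1058 and 1083 CPM to 5266 and 5347 (log2 change 2.45, SE 0.22, edgeR adjusted p = 0.00110). D3 was its highest stage, and it stayed at 2.95 to 33.6 CPM in the embryos. Psat6g141520 fell from 201 and 244 CPM to 0.565 and 0.398 (log2 change -8.71, SE 0.57, edgeR adjusted p = 4.43e-04), after similar levels at D1 (204 and 263 CPM). Psat7g234440 fell from 17025 and 17172 CPM to 7719 and 6429 (log2 change -1.13, SE 0.30, edgeR adjusted p = 0.0444). That call was not firm: it was lost with the RLE scaling (adjusted p = 0.0880) and without any 1 of the 6 libraries of D2, D3 and D4 (adjusted p = 0.106 to 0.247).

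From D3 to D4, Psat5g242600 rose from 0.214 and 0.643 CPM to 3893 and 4178 (log2 change 13.30, SE 0.60, edgeR adjusted p = 1.38e-04). At D1 both libraries held 0 counts of it, which allows up to 3 counts over both. Without library 2 of D3 the log2 change was 14.27. This feature belongs to a run of 4 features, neighbours in identifier order among those tested, that all rose at this step, the longest such run among its rising features, noticed after the values were seen. The summed level of the run was 0, 0.0558 and 0.428 CPM from D1 through D3, then 6730 CPM at D4 and 1575 CPM in the D5 library. Psat1g038600 rose from 545 and 657 CPM to 16905 and 15837 (log2 change 4.87, SE 0.87, edgeR adjusted p = 0.0112) and was high in the embryos as well, at 5584 CPM at D4 and 17259 at D5. The call was lost without either library of D3 (adjusted p = 0.116 and 0.0951) or of D4 (0.0517 for both).

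Among features that fell from D3 to D4, Psat6g141480 went from 232 and 223 CPM to 2.74 and 3.31 (log2 change -6.14, SE 0.28, edgeR adjusted p = 6.07e-05). It had peaked at D2 with 3274 and 3101 CPM. Psat2g026840, the feature that rose most in CPM from D1 to D2, fell from 16353 and 13306 to 1675 and 2077 CPM (log2 change -2.89, SE 0.46, edgeR adjusted p = 0.00748). Its call was lost without library 1 of D3 (adjusted p = 0.0605) or without library 1 or 2 of D4 (0.0869 and 0.0676). The trace of JI64 features in the D4 libraries bears on features that rose here. Of 2010 such features, 13 are present only in JI64 embryos, and for 46 (2.29%) the JI64 level at D4 times the trace reached 0.5 of the rise. The tissue and stage behind the trace are not known, so this share does not bound its effect. The level of Psat5g242600 in the JI64 seed coat at D4 was 243 CPM and that of Psat1g038600 was 1404 CPM, both below the level in JI92.

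From D4 to D5, Psat2g056920 rose from 1.97 and 2.05 CPM to 1569 (log2 change 9.45, SE 0.45, edgeR adjusted p = 3.23e-04). At D3 both libraries held 0 counts of it. Its embryo levels were at most 0.367 CPM, so among the JI92 tissues measured it was a seed coat feature. Psat7g239160 rose from 1905 and 1969 CPM to 8754 (log2 change 2.02, SE 0.36, edgeR adjusted p = 0.0131), and the call was lost without library 1 or 2 of D4 (adjusted p = 0.0982 and 0.0882).

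Psat1g171160 fell from 2039 and 1928 CPM at D4 to 1.47 at D5 (log2 change -10.55, SE 0.76, edgeR adjusted p = 4.89e-04). It had been at 5326 and 4979 CPM at D3. Psat0s876g0120 had 7927 and 7588 CPM at D4 and 12.9 at D5 (log2 change -9.39, SE 0.91, edgeR adjusted p = 0.00143). It was at most 3.45 CPM before D4, so among the JI92 seed coats of the main set it was high at D4 alone. In Cameor seed coats its mean level was 109 CPM at D2, 1014 CPM at D4 and 732 CPM in the D5 library, so there it was not high at D4 alone. In the JI92 seed coats labelled 2017 the same feature had 3.39 and 3.86 CPM at D4, in JI92 embryos it had at most 30.4 CPM, and in the JI64 seed coat at D4 it had 717 CPM.

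With the 2017 libraries added and the set as a term, 11 of the 16 calls named for single steps were lost. From D1 to D2 these were Psat1g101880 (log2 change 5.30, edgeR adjusted p = 0.0588) and Psat2g026840 (0.48, 0.784). Between D2 and D3 all 4 were lost, Psat0s1215g0120 (log2 change 3.86, edgeR adjusted p = 0.321), Psat3g011320 (0.82, 0.727), Psat6g141520 (-7.75, 0.210) and Psat7g234440 (-0.37, 0.871). Between D3 and D4 they were Psat1g038600 (4.12, edgeR adjusted p = 0.0764) and Psat6g141480 (-6.00, 0.0884). At the last step they were Psat2g056920 (1.82, edgeR adjusted p = 0.892), Psat1g171160 (-9.56, 0.357) and Psat0s876g0120 (-8.40, 0.532). The 2017 set has no D3 or D5. By likeness its labels D2 and D4 were nearest to the main D3 and D5, D2 by a small margin.

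**Figure D4:**
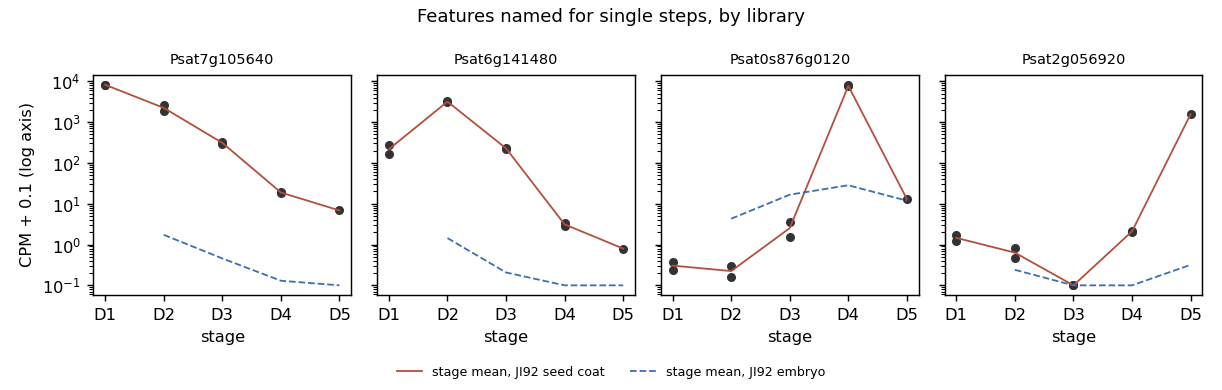
CPM plus 0.1 on a log axis against stage for 4 of the features named for single steps, with 1 point per JI92 seed coat library, a solid line through the stage means and a dashed line through the JI92 embryo means from D2 to D5. Psat7g105640 declines from D1, Psat6g141480 peaks at D2 (3274 and 3101 CPM), Psat0s876g0120 is high at D4 alone (7927 and 7588 CPM) and Psat2g056920 at D5 alone (1569 CPM).

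Over the whole course 13523 features differed between at least 2 stages (43.6% of those tested, edgeR test of all stages together). The ends of the course held most of the highest levels, both among these features and among all features tested. Sorted by the stage of their highest mean, 5458 of these features peaked at D1, 1653 and 1378 peaked at D2 and D3, 1741 peaked at D4 and 3293 were highest in the D5 library. The mean rose at every step for 853 features and fell at every step for 1763. Among all features tested, 38.8% were highest at D1 and 21.2% at D5, against 40.4% and 24.4% of those that differed. D2 and D4 changed places, with 17.9% and 11.3% of all features tested but 12.2% and 12.9% of those that differed. Features called at separate steps overlapped in part, in the same and in opposite directions. Of the 2815 that fell from D1 to D2, 894 also fell from D3 to D4, which is 31.8% of the first set and 36.3% of the second, where 7.94% of all features tested fell. Of the 2463 that rose from D2 to D3, 441 rose again from D4 to D5 (17.9% of the first set and 38.5% of the second, against 3.69% of all features tested). Of the 2589 that rose from D1 to D2, 528 fell from D4 to D5 (20.4% of the first set and 24.0% of the second, against 7.10%). Of the 2815 that fell at the first step, 266 rose at the last (9.45% and 23.2%, against 3.69%). The smallest excess was for the 2090 that fell from D2 to D3, of which 86 rose from D4 to D5 (4.11%, against 3.69%). All steps were tested in the same fit, so a feature with little spread between libraries is called more easily at every step. The share over all features tested is therefore no chance level for these overlaps.

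**Figure D5:**
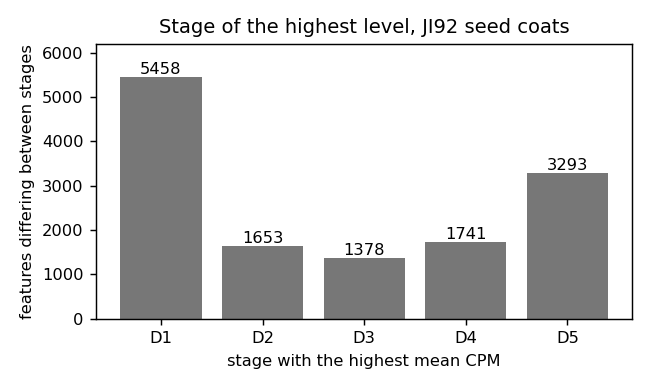
The bars count the 13523 features that differed between stages by the stage with the highest mean CPM in JI92 seed coats. D1 holds 5458 and D5 3293, and the 3 middle stages hold 1378 to 1741 each. D1 and D5 hold 40.4% and 24.4% of these features, against 38.8% and 21.2% of all features tested.

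The most abundant transcripts also changed from stage to stage. By FPKM, which scales counts by feature length and library total, Psat1g175840 led at D1 (5063 and 6122 FPKM) and again at D3 (6868 and 8060 FPKM). Its level stayed between 3659 and 8060 FPKM in all 9 libraries. In CPM it ran from 8119 to 17980 in these libraries, while embryo libraries held at most 142 CPM of it. The JI92 seed coats labelled 2017 held 7717 and 7361 CPM of it at D1, 14266 and 13091 at D2, but 809 and 741 at D4. Psat3g179520 led at D2 with 11098 and 10331 FPKM, up from 638 and 858 at D1, and was at 0.821 FPKM at D5. Ps_DOR2genes.52141, a locus outside the annotation, led at D4 with 11073 and 11617 FPKM. That locus had at most 4.15 FPKM at D1 and a median of 19819 CPM in the embryo libraries. At D5 Psat5g004800 had 8938 FPKM and Ps_DOR2genes.52307 had 8937, so no order between them can be given. Of the 50 features with the highest FPKM at D1, 22 and 14 were still among the top 50 at D2 and D3 and 5 at either later stage, and 3 were among them at all stages.

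The lists defined in PI358617 place the JI92 stages in order. Of 297 early seed coat features tested, 285 were lower late and 3 higher, with a median log2 change of -3.39 against -0.27 over all features tested. Of 295 late seed coat features, 276 were higher late and 3 lower, with a median of 3.42. Over all features tested 17.9% were higher late and 23.1% lower. The late list is not specific to the seed coat, since it took 18.2% to 38.0% of the counts in JI92 embryo libraries and less than that in each seed coat library, from 0.364% at D1 to 16.9% in library 1 of D4 and 16.3% at D5. The list and the stage score below therefore move with transcripts that the embryo also holds, and the part of embryo material in them was not tested. The early list fell at every step, with 137, 209, 164 and 122 features lower and 34, 7, 9 and 19 higher, in the order of the steps. The late list rose mostly before D4, with 201, 180, 86 and 49 features higher in the order of the steps, while 40 fell at the last one. The mean level of the late minus the early list, on the log2(CPM + 1) scale, went from -4.72 at D1 through -2.19, 1.11 and 3.05 to 3.78 at D5. Replicates of a stage lay within -4.81 to -4.64 at D1 and closer at the other stages.

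Seed-coat-enriched features did not move as 1 group. Of 296 tested, 110 were higher late and 131 lower, where 17.9% and 23.1% of all features tested were. Their median log2 change was -0.14, against -0.27 over all features tested. From D1 to D2, 132 were higher and 34 lower, beside 8.35% and 9.08% of all features tested. Between D3 and D4, 8 were higher and 60 lower, beside 6.48% and 7.94%. Their share of counts was 7.66% and 8.46% at D1, 14.7% and 16.6% at D2, 13.1% and 14.7% at D3, 9.09% and 9.17% at D4, and 10.7% at D5.

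Features abundant in the PI358617 embryo were mostly higher in the late seed coat. Of 50 abundant embryo features, 44 were higher late and 2 lower, with a median log2 change of 6.21. Of 256 embryo-enriched features, 112 were higher and 57 lower, with a median of 0.61. Of all features tested 17.9% were higher and 23.1% lower, so the number of embryo-enriched features that fell was near that background. The abundant embryo features took 0.0718% and 0.114% of the counts at D1, 0.566% and 0.587% at D2, 3.72% and 4.00% at D3, 13.6% and 13.8% at D4 and 4.20% at D5. In the JI92 embryo libraries they took 28.9% to 60.6%. The seed coat level of the 50 features as a percent of the embryo level was not 1 value. It had quartiles of 1.37% and 2.63% at D2 (median 1.78%) and 3.40% and 8.89% at D3 (median 5.61%). The quartiles were 5.08% and 40.7% at D4 (median 13.9%) and 9.52% and 20.8% at D5 (median 15.1%). At D4, 5 of the 50 had a higher level in seed coats than in embryos. The part of embryo material in the rise of these features was not tested, and in bulk tissue more cells of a type and more RNA per cell cannot be told apart.

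Most features that rose were not embryo features by level. Of the 5539 features higher late, 1076 (19.4%) had a higher mean in JI92 embryos at D3 to D5 than in seed coats, against 30.6% of all features tested, and 1416 (25.6%) had an embryo level below 0.1 of the seed coat level, against 20.6%. Of the features that rose from D4 to D5, 84 of 1145 (7.34%) were higher in the D5 embryo, against 38.6% of those tested. From D3 to D4, 365 of 2010 (18.2%) were higher in the D4 embryo, against 32.1%. A rise in the seed coat itself lowers these shares, so they describe the features and test nothing.

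Calls were spread over the kinds of identifier as follows, with no test of the differences. Between late and early, 21.6% of 20883 features of the series Psat1g to Psat7g rose and 27.4% fell, against 7.07% and 10.1% of 7478 loci outside the annotation. The median log2 change was -0.22 for the former and -0.58 for the latter. The 7 identifier series were alike, with 20.7% to 22.4% of features higher late and 26.4% to 28.0% lower. The median length implied by counts and FPKM was 2752 bases for features that rose, 2698 for those that fell and 2343 for all tested. Neighbours in identifier number changed together somewhat more often than the share over all features gives. Between late and early, the next feature after one that rose also rose in 23.5% of cases, against 21.7% of all features. After one that fell the next also fell in 29.4%, against 27.4%. At each single step the share was likewise above that of all features. It was 9.25% against 8.23% for those that fell from D2 to D3, and 7.26% against 4.69% for those that rose from D4 to D5.

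The make-up of each library was compared by 3 measures between 5 late and 4 early libraries, with an exact two-sided permutation test, whose smallest possible p is 0.0159. That test treats the libraries as interchangeable, although replicates share a stage and libraries of the same number went together at D1 and D2. Its p-values therefore do not measure the spread between stages. Late libraries had 17449 ± 157 features with at least 1 CPM (SD, n = 5) and early ones 18751 ± 995 (SD, n = 4), with exact p = 0.0317 and 0.0952 after adjustment over the 3 measures. The early values were 19824 and 18194 at D1 and 19321 and 17664 at D2, so both libraries numbered 1 were the highest. The 50 most abundant features took 22.5% ± 1.63 of the counts late and 19.7% ± 4.73 early (exact p = 0.302, adjusted 0.302). Loci outside the annotation took 5.59% ± 0.832 late and 3.85% ± 1.11 early (exact p = 0.0794, adjusted 0.119). None of the 3 measures passed after adjustment.

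The 2017 libraries of JI92 held the same line and the labels D1, D2 and D4, 2 libraries each. By likeness the labels D1, D2 and D4 were nearest to the main D1, D3 and D5, by small margins for D1 and D2. The 2017 libraries labelled D1 had mean Spearman correlations of 0.943 and 0.942 with the main D1, and 0.937 and 0.936 with the main D2. Those labelled D2 had 0.912 and 0.915 with the main D3, and 0.906 and 0.905 with the main D2. Those labelled D4 had 0.932 and 0.934 with the main D5, and 0.873 and 0.875 with the main D4. Between D4 and the mean of D1 and D2, 11043 features changed in the main set (35.6% of 31019) and 17929 in the 2017 set (62.3% of 28789). The main count was 6449 and 6442 without library 1 or 2 of D4. In the main set 5574 rose (18.0%) and 5469 fell (17.6%), and in the 2017 set 9119 rose (31.7%) and 8810 fell (30.6%). Of the 5574 features that rose in the main set, 5030 were tested in the 2017 set. There 4025 of them (80.0%) had the same sign, against 48.5% of all features tested in that set. Of the 5469 that fell, 4629 of 5449 (85.0%) had the same sign, against 51.5%. Opposite calls were made for 697 and 449 features. Psat0s1925g0040 had 3902 and 3968 CPM in the 2017 libraries labelled D4, close to the main D4, whereas Psat2g056920, high in the main set at D5 alone, had 3208 and 3364 CPM there.

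Cameor, the other domesticated line, was sampled with the same number of libraries at each stage. The late minus early change differed between JI92 and Cameor for 7221 of 35196 features (20.5%), with the JI92 change the higher for 4579 (13.0%) and the lower for 2642 (7.51%), by an edgeR test of the interaction. Without the JI92 libraries numbered 1 at D1 and D2 these were 5318 and 4665 of 9983. Of 4577 features with a higher JI92 change that were tested in both lines, 2676 rose and 740 fell in JI92. In Cameor 1398 of them rose and 2071 fell, and 372 passed in opposite directions. Of 2632 with a lower JI92 change, 116 rose and 1940 fell in JI92. In Cameor 711 of these rose and 898 fell, and 168 passed in opposite directions. Over all features tested, 5539 of 31019 rose and 7160 fell in JI92, and 5564 of 35196 rose and 7840 fell in Cameor. The share of opposite calls over all features was not computed. The stage score based on the PI358617 lists began lower in JI92, at -4.72 at D1 against -1.78 in Cameor, and ended at 3.78 against 3.49 at D5. A line difference and a shift of stage under the same label cannot be told apart in these data.

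The features named for this interaction had the largest fold or difference in each direction. Psat4g180800 had mean levels of 0.889, 134, 125, 9.76 and 3.70 CPM in JI92, in the order of the stages. In Cameor it had 1340, 1162, 9.55, 0.492 and 0.260 CPM (interaction 11.06 on the log2 scale, SE 0.27, edgeR adjusted p = 1.31e-09). Its means thus declined from D1 on in Cameor and were highest at D2 and D3 in JI92. Without D5 of JI92 the interaction was 12.03, and without D5 of Cameor it was 10.07. Ps_DOR2genes.52307 went from a mean of 5.98 CPM at D1 to 342 and 1081 at D2, 2635 and 4917 at D3, 8915 and 9190 at D4 and 15119 at D5 in JI92, and reached at most 392 CPM in Cameor (interaction 3.51, SE 0.49, edgeR adjusted p = 3.37e-04). In JI92 embryos it had at most 4.31 CPM. Without library 2 of D2 of JI92 the interaction was 4.13.

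Psat3g140920 went from a mean of 1117 CPM at D1 to 0.217 at D5 in JI92 and from 221 to 12.3 CPM in Cameor (interaction -6.86, SE 0.33, edgeR adjusted p = 1.56e-07). Without D5 of JI92 the interaction was -6.06. Psat0s1401g0080 went from 2926 and 6056 CPM at D1 to 3.94 at D5 in JI92, and from a mean of 808 to 10.5 CPM in Cameor (interaction -1.98, SE 0.32, edgeR adjusted p = 9.13e-04). That difference rested on D5, since without the D5 library of JI92 it was -0.17 with an adjusted p of 1.000, and without that of Cameor it was -3.04.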

How the data were processed

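Messenger RNA was sequenced from pea seed tissue. The values deposited by the authors are raw counts of reads for 59594 features in 117 libraries, and FPKM (scaled by feature length and mapped total) for the same features. Reads were mapped to the Cameor genome, per the series' design text, and HISAT2 2.1.0 and StringTie 2.1.0 are named in the submitters' processing notes. Of the counting rule, strand and treatment of reads that match several places nothing is known here, so near-identical copies may share reads. Of the rows, 10 repeated an identifier and were kept as separate features, but were not eligible to be named.

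Counts were tested by edgeR's robust quasi-likelihood F test (version 4.0.16, R 4.3.3) after TMM scaling and filterByExpr, with p-values adjusted by Benjamini-Hochberg over all features tested and a threshold of 0.05. The 9 JI92 libraries were fitted with 1 mean per stage, which leaves 4 residual degrees of freedom. Late is the mean of the D3, D4 and D5 means and early that of the D1 and D2 means. The 6 libraries labelled 2017 were fitted alone, and the interaction used the 9 JI92 and 9 Cameor libraries. CPM are counts scaled by the library total. SE is the log2 change divided by the square root of its F value. Library measures were compared by exact permutation (scipy 1.17.1).

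Lists came from PI358617, which entered no comparison: the 300 features of smallest p higher in its seed coat than its embryo, the 300 of the reverse, the 50 with the highest embryo CPM among all features enriched in its embryo (whatever their rank by p), and 300 features higher early or late in its seed coat. Members, lists and the rule for named features were chosen with earlier results of these data known. In each comparison and direction the named features are that with the largest fold (at least 10 counts in every library compared) and that with the largest CPM difference. Named features must pass the threshold and, except for the interaction, have no overlap between the libraries compared. The feature with the highest mean FPKM at each stage is also named.

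A feature was taken as present only in the embryos of 1 line with at least 0.5 CPM in all of them and under 0.03 CPM in all embryos of the other lines. Features that differ between replicates at D1 and D2 were found on log2(CPM + 0.1). Alternatives were RLE scaling, no filter, DESeq2 1.42.0, limma 3.58.1 on the log2 of FPKM with 1 or 0.1 added, a replicate block, the 2017 libraries added, a minimum log2 change of 1, and leaving out each library. Those without the libraries that stand apart were chosen after seeing the data. In data simulated for 31019 features, 66 or 67 features with a mean of at least 1 CPM were changed by each fold. Far more features were called in the real data, so the rates below do not give the power there. Late against early recovered 53.7% of 2-fold, 82.1% of 4-fold and 93.9% of 16-fold changes, and 8.38% of its calls were false. D4 to D5 recovered 2.99%, 43.3% and 80.3%, and 8.70% of its calls were false. Replicate numbers went together at D1 and D2 but not at the other stages, and the main fit held no term for them.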

Additional observations from a re-analysis of the deposited data

Results flagged for a closer look

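Among 14 groups examined, each made of the 4 early or the 5 late libraries, 2 held a value far from the others. The groups hold more than 1 stage, so a chance rate for like values does not apply. Psat0s1925g0040 had 0.685 CPM in library 1 of D2, against 0.177 to 0.196 CPM in the other early libraries, a gap of 0.963 of the group's range. Psat5g004800 had 19350 CPM at D5, against 4193 to 6767 CPM in the other late libraries, a gap of 0.830 of the range. The mean of this feature rose at every step, and D5 holds 1 library.

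The late minus early change differed between JI92 and Cameor for 7221 features by the edgeR interaction test. Only features named for late against early or for this interaction were listed here. Features named for single steps were left out, and some of them also passed in either direction. Examples are Psat1g101880 (8.95 on the log2 scale, edgeR adjusted p = 1.05e-09) and Psat5g292680 (-8.51, 0.00632). Among the features listed, the change was higher in JI92 for Psat4g180800 (11.06 on the log2 scale, edgeR adjusted p = 1.31e-09), Ps_DOR2genes.52307 (3.51, 3.37e-04), Psat0s1925g0040 (3.49, 0.00966), Psat1g156800 (1.39, 5.08e-06) and Psat5g004800 (1.07, 0.0102). It was lower in JI92 for Psat3g140920 (-6.86, edgeR adjusted p = 1.56e-07) and Psat0s1401g0080 (-1.98, 9.13e-04).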

How the results depend on the processing

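No named feature changed direction under any alternative run, and of 496 values of 24 named results 465 kept their side of the threshold and 31 lost it. Late against early gave 8463 features with a minimum log2 change of 1 and 5913 with 2 classes and no stage means. With DESeq2, D2 to D3 gave 6903 and D4 to D5 gave 5165, and with limma on log2(FPKM + 1) without a filter D4 to D5 gave 5426. With the 2017 libraries, D2 to D3 gave 568, D3 to D4 gave 2420 and D4 to D5 gave 89. By likeness their labels D2 and D4 were nearest to the main D3 and D5, D2 by a small margin. Without the libraries numbered 1 at D1 and D2, D3 to D4 gave 8504 and D4 to D5 gave 7057. Without those numbered 2, D2 to D3 gave 8796, D3 to D4 gave 8018 and D4 to D5 gave 6772. The difference in features with at least 1 CPM was -1302, and with at least 0.1 CPM it was -1184 and no longer passed unadjusted (exact permutation p = 0.143). The cause of these shifts was not tested.

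Leaving out each library in turn gave 10682 to 12955 features for late against early, 3434 to 5704 for D1 to D2, 1477 to 6051 for D2 to D3, 1390 to 5619 for D3 to D4 and 1245 to 4599 for D4 to D5. It gave 6442 to 11357 for D4 against D1 and D2, 10309 to 14077 for any stage, 14969 to 19749 in the 2017 set and 5903 to 9142 for the interaction. The difference in features with at least 1 CPM ran from -1664 to -944.

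The replicate numbers went together at D1 and D2, but not at the other stages, and the main fit held no term for them. Deviations of libraries with the same number correlated at 0.568 for D1 and D2, but at -0.0256 to 0.00376 for the other 5 pairs of stages. With the replicate block and without D5, late against early gave 11182 features, D1 to D2 5761, D2 to D3 5054, D3 to D4 4688, D4 against D1 and D2 11048, any stage 12505 and the interaction 7344. With the block on the D1 and D2 libraries alone D1 to D2 gave 7588, and in the 2017 set the block gave 16555. Psat7g234440 missed the threshold with the block (edgeR adjusted p = 0.0578).

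With 1 library at D5 and 2 at each other stage, small changes can be missed, as they often were in the simulated data.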
